A study of Papio papio with 23 samples.

Results

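Blood drawn on day 1 from baboons that later developed the milder category of radiation syndrome was compared with blood of unexposed baboons, across every gene the arrays measured. The 9 arrays compared were chosen by sample title, 4 of H1-2 day 1 and 5 of H0, out of 23 arrays in the series. Of the genes on these arrays, 21130 were tested, and 14702 of them carry a gene symbol.

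Each array held RNA from peripheral whole blood of 1 adult male *Papio papio* baboon, and the labels give an age of 8.1 ± 3.3 years for the study's animals. H0 animals were sampled before irradiation and are labelled healthy. The H1-2 animals were anaesthetised, irradiated with gamma rays and sampled 1 day later, and their category, low to medium haematological acute radiation syndrome (HARS), was given for the course of illness that followed. Exposure was equivalent to 2.5 or 5 Gy to the entire body, given to all or part of it, and the labels do not say which animal received which, so the H1-2 group may mix doses and fields. H1-2 baboons with the same numbers were also sampled a day later (4 arrays), and a group of the more severe category, H2-3, was sampled on both days (5 arrays each). Nothing in the labels says whether H0 baboons are the same animals as irradiated ones, and nothing says how blood was drawn apart from the tube, so p-values measure only the spread between these arrays.

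Haematological acute radiation syndrome follows from damage to bone marrow and circulating cells. Lymphocytes are among the most radiosensitive cells of the body and die soon after exposure, whereas mature neutrophils are released from the marrow's reserve under stress. Whole blood RNA is a mixture of both, with reticulocytes, platelets and monocytes, so it records the mix of cells and what each cell transcribes.

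All values are log2 signals minus the array's 75th percentile, called levels here, and a difference is a log2 difference in levels ± its standard error, so a difference of 1 is a 2-fold change in signal. Between 45.7% and 47.3% of probes were well above background on the 4 H1-2 day 1 arrays and between 44.9% and 51.3% on the 5 H0 arrays. Above background means here that a probe was flagged well above background on an array. A probe called at or below background lacked that flag, and its signal need not lie under the background. The means differed by -2.60 percentage points (exact permutation test, two-sided, p = 0.0952, smallest possible 0.0159). The blood genes HBB, PTPRC, CORO1A, SPI1, LCP1 and ARHGDIB exceeded background clearly on 9 of 9 arrays, and ALB, MYH7, GFAP and KRT5 of other organs on 0 of 9. INS and UMOD, which mark pancreas and kidney, were nevertheless above background on 9 of 9, APOA1 on 6 and SFTPC on 3. The probes are human sequences hybridised with baboon RNA, and levels are compared only within a probe.

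On day 1, 883 genes rose and 933 fell against H0 at an adjusted p under 0.05 (limma, Benjamini-Hochberg over 21130 genes), which is 4.18% higher, 4.42% lower and 8.59% in either direction. Of these, 610 rose and 490 fell by at least 2-fold. The smallest adjusted p was 0.0104, and 1711 more genes lay between 0.05 and 0.10, so the threshold cuts through a dense part of the list. The median difference over all genes was 0.09. On all 4 H1-2 arrays 1054 genes (4.99%) were above every H0 array and 1140 (5.4%) below every H0 array. Among the called genes, that held for 562 of those that rose and 633 of those that fell. Genes with a symbol were called more often (4.98% higher, 5.46% lower) than genes with a lincRNA name (1.96% and 1.37%). Among the 5283 genes with the highest levels 9.81% were called higher and 3.62% lower, against 1.51% and 3.2% among the 5283 with the lowest. Of 467 called genes with another kept probe, 429 (91.9%) had the same sign in the median of their other kept probes.

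**Figure D1:**
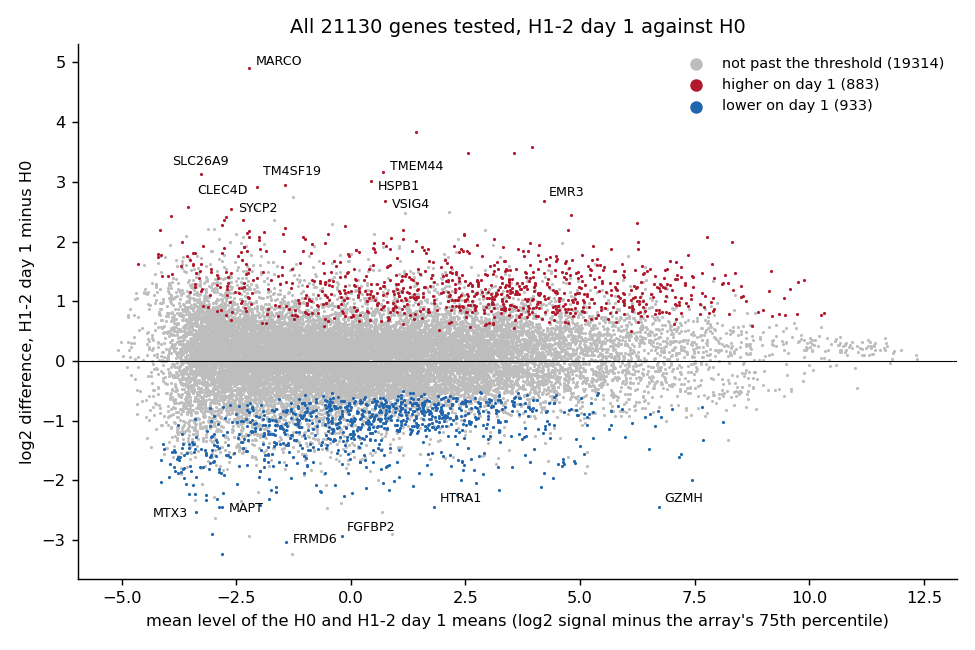
Each point is 1 of the genes tested, with the mean of its H0 and H1-2 day 1 levels (log2) on the horizontal axis and the log2 difference, H1-2 day 1 minus H0, on the vertical axis. Red points rose and blue points fell at an adjusted p under 0.05, and rises reached 4.90 (MARCO) while the named falls reached -3.02 (FRMD6).

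The number of genes called differed widely between settings. Without H1-2 baboon 1 the count fell from 1816 to 4, and without H1-2 baboons 2 and 4 it was 402 and 891. Without H0 baboons 1, 4 and 5 it was 497, 817 and 543, and without H0 baboon 3 it was 3105. No slide held both groups. Scan day 1, by the scan times in the files, held all 4 H1-2 day 1 arrays and H0 baboons 3, 4 and 5, and within it 352 genes were called. With scan day as a fixed block 4 genes were called, and with slide as a fixed block, which links the groups only through a slide shared by H0 baboon 5 and an H2-3 array, 9. Fitting the 2 groups alone gave 211 genes. Unadjusted p-values under 0.05 were held by 5846 genes within scan day 1, which leaves out 2 H0 arrays, 4767 with scan day as a block and 3078 with slide as a block, against 5663 with all arrays and no block. The share of called genes that were higher, 48.6%, was 34.5% after quantile normalization, 34.6% with the deposited table and 32.4% when the percentile was taken over probes detected on every array, a scaling that moved the median of all genes from 0.09 to -0.03.

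**Figure D2:**
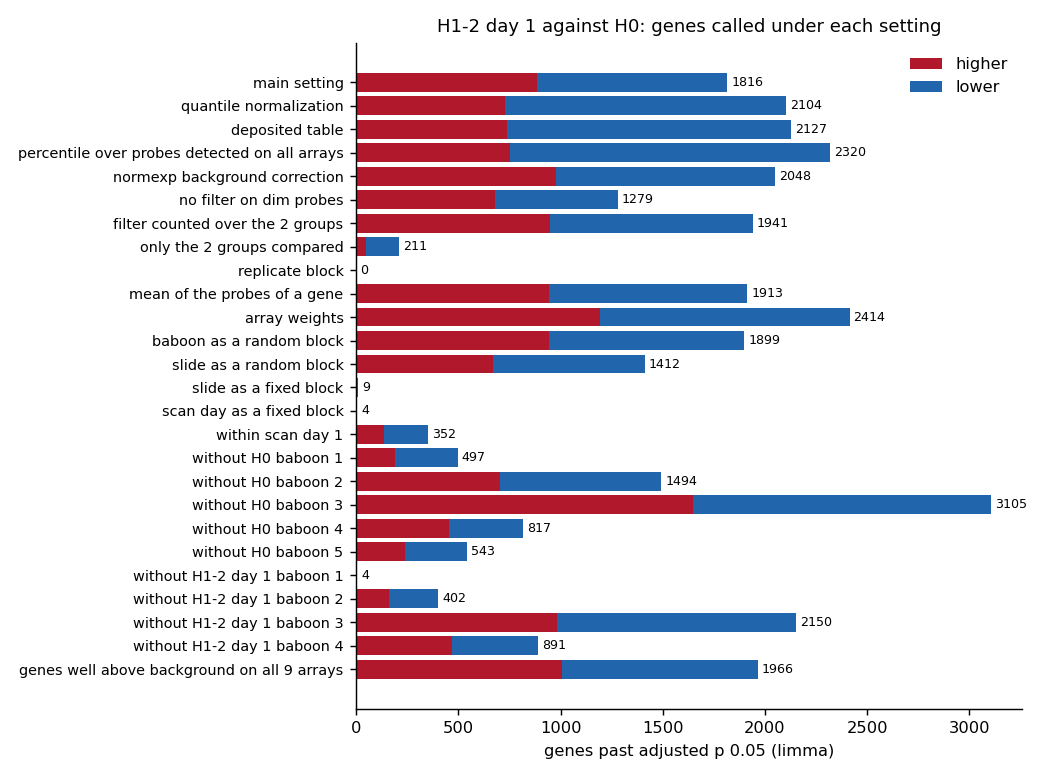
Bars give the number of genes past an adjusted p of 0.05 in H1-2 day 1 against H0 under each setting, split into higher (red) and lower (blue), with the total printed at the end. The main setting called 1816, and the settings without H1-2 baboon 1 or with slide or scan day as a fixed block called 4, 9 and 4.

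Blood cell markers moved with these changes, and fewer cells of a type and less RNA per cell cannot be told apart in whole blood. Of 14 tested neutrophil markers 11 rose and 0 fell (median 1.71), and 11 of 15 natural killer cell markers fell with 0 higher (median -1.89). Among T cell markers 5 of 14 fell and 1, CD4, rose (median -1.37), and 3 of 12 monocyte markers rose (median 0.77). Over all genes tested 4.18% were called higher and 4.42% lower. With 1 array left out at a time, 0 to 13 neutrophil and 0 to 13 natural killer markers were called. For T cell and monocyte markers it was 0 to 9 and 0 to 4. Of the 13 B cell, 11 erythroid and 11 platelet markers tested 0 were called (limma), with 0, 0 and 1 at an unadjusted p under 0.05. The mean level of the neutrophil list, relative to the H0 mean, ran from -1.44 to 1.47 in H0 and from 1.34 to 2.24 on day 1, so the groups overlapped. That of the natural killer list ran from -0.96 to 0.47 and from -2.29 to -1.49, without overlap. FCGR3B of the neutrophil list, PAX5 and MS4A1 of the B cell list, HBA1 and SELENBP1 of the erythroid list and GP6 of the platelet list passed no filter and were not tested. The part of these markers in the gene results that follow was not tested.

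The largest rise was that of MARCO, which binds bacteria and particles on macrophages. It stood between -5.55 and -3.74 in H0, not well above background on any of the 5 arrays. On day 1 it read 0.31, 3.00, -1.34 and -1.06 in baboons 1 to 4. All 4 lay above every H0 array, which was a condition for being named among the largest rises. It was at least 11.1-fold higher (fitted difference 4.90 ± 0.89, adjusted p = 0.0141). CLEC4D, a C-type lectin receptor of myeloid cells, read -0.68, -1.33, -0.31 and -0.05 against -5.27 to -1.64 in H0, with 1 of 5 H0 arrays above background (difference 2.92 ± 0.65, adjusted p = 0.0158). VSIG4, a complement receptor of macrophages, read 2.32, 4.06, 0.84 and 1.08 against -1.19 to -0.15 (2.67 ± 0.61, adjusted p = 0.0165). In both MARCO and VSIG4, baboons 1 and 2 stood above baboons 3 and 4. EMR3, an adhesion receptor of myeloid cells, read 5.54, 6.01, 4.93 and 5.70 against a wide H0 range of 0.55 to 4.69 (2.68 ± 0.61). LILRA6, a leukocyte immunoglobulin-like receptor, read 5.94, 6.31, 5.74 and 6.14 against 2.59 to 4.77 (2.44 ± 0.42, adjusted p = 0.0126). Another LILRA6 probe differed by 0.75, and the close copies within this receptor family may share probes, so the size is uncertain.

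SLC26A9, an anion transporter best known from airway and stomach, was below background on 5 of 5 H0 arrays and read -1.52, -1.44, -2.57 and -1.32 on day 1, at least 2.89-fold higher (fitted difference 3.13 ± 0.51, adjusted p = 0.0104). TM4SF19, a membrane protein, read 1.48, -0.74, -0.25 and -0.35 against -4.92 to -1.57 in H0 (2.96 ± 0.71), and its other probe, below background on every H0 array, differed by 2.64. TMEM44 read 2.84, 2.15, 2.09 and 2.07 on day 1. In H0 it read 1.93 in baboon 3 and -2.21 to -1.07 in the other 4, so the groups were apart by little in that animal (3.16 ± 0.88, adjusted p = 0.0325). SYCP2, a component of the synaptonemal complex of meiosis, read -0.16, -0.43, -2.55 and -2.18 against -5.45 to -3.21 (2.55 ± 0.56). Again baboons 1 and 2 were the higher pair.

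HSPB1, the small heat shock protein Hsp27 that keeps damaged proteins from aggregating, was called under 22 of the 25 other settings tried, also without H1-2 baboon 1. It read 1.82, 1.20, 3.03 and 1.72 on day 1 against -1.78, -0.86, -0.17, -1.35 and -1.22 in H0 (3.02 ± 0.47, adjusted p = 0.0104). A pair of its probes, whose letters are shown because they read neighbouring parts of the same transcript, both gave the rise. The stretches below are 30 of the 60 bases of each probe, 5′ to 3′ on the plus strand of hg19.
HSPB1 probe over the stop codon, chr7:75933473-75933502: gagactgccgccaagTAAagccttagcccg
HSPB1 probe at the transcript's end, chr7:75933573-75933602: cttctgtttttctcaAATAAAgttcgaagc
Capitals mark the stop codon in the first and the AATAAA polyadenylation signal in the second. The first stood for the gene, and the second differed by 3.37, with -2.53 to -0.67 in H0 and 1.24 to 2.64 on day 1. Another probe, near the start of the transcript at chr7:75931924-75931983, rose clearly over background on 1 of 9 arrays and gave no measurement. AATAAA, searched on the probe's own strand, was found in 7.6% of the probes of all genes tested, 6.2% of those that rose and 8.5% of those that fell.

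Of the 10 largest falls described, GZMH and FGFBP2 are on the natural killer cell marker list. GZMH, a granzyme of killer lymphocyte granules, read 5.07, 5.92, 5.86 and 5.10 on day 1 against 6.56 to 8.74 in H0 (-2.45 ± 0.60, adjusted p = 0.0202). FGFBP2, secreted by cytotoxic lymphocytes, read -1.55, -0.83, -2.37 and -1.94 against -0.18 to 2.40 (-2.94 ± 0.91, adjusted p = 0.0479), close to the threshold. GPR171, a G protein-coupled receptor, read 0.84, 0.99, 1.98 and 0.99 against 2.47 to 4.19 (-2.24 ± 0.49). PTPN4, a protein tyrosine phosphatase, read -1.66, -1.36, -0.92 and -1.21 against -0.02 to 1.64 (-2.27 ± 0.51). HTRA1, a secreted serine protease, fell by 2.45 ± 0.61 on the log2 scale, from 2.32 to 3.94 in H0 to between -0.27 and 1.30. FRMD6, a FERM domain protein, read -0.81 to 1.39 in H0 and -4.69 to -2.13 on day 1, where 2 of 4 arrays were above background (-3.02 ± 0.83, adjusted p = 0.0305). In each of these 6 genes every H1-2 array lay below every H0 array, which was a condition for being named among the largest falls. Over all genes tested this held for 5.4%.

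For 4 of the falls the gene was not well above background on any H1-2 day 1 array, so the size has only a bound. IL4, the cytokine of type 2 helper T cells, was above background on 5 of 5 H0 arrays (-2.60 to -1.56) and on 0 of 4 on day 1, at least 1.77-fold lower (fitted -2.24 ± 0.53, adjusted p = 0.0193). ITGA1, the alpha subunit of a collagen-binding integrin, was at least 1.83-fold lower (fitted -2.33 ± 0.39, adjusted p = 0.0104). MAPT, the gene of the microtubule protein tau, was at least 2.44-fold lower (fitted -2.45 ± 0.48), and its other probe differed by -0.69. MTX3, a metaxin of the mitochondrial outer membrane, was at least 1.68-fold lower (fitted -2.52 ± 0.46). The fitted differences of these 4 genes rest on signals at background, so their places among the largest falls were not measured.

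**Figure D3:**
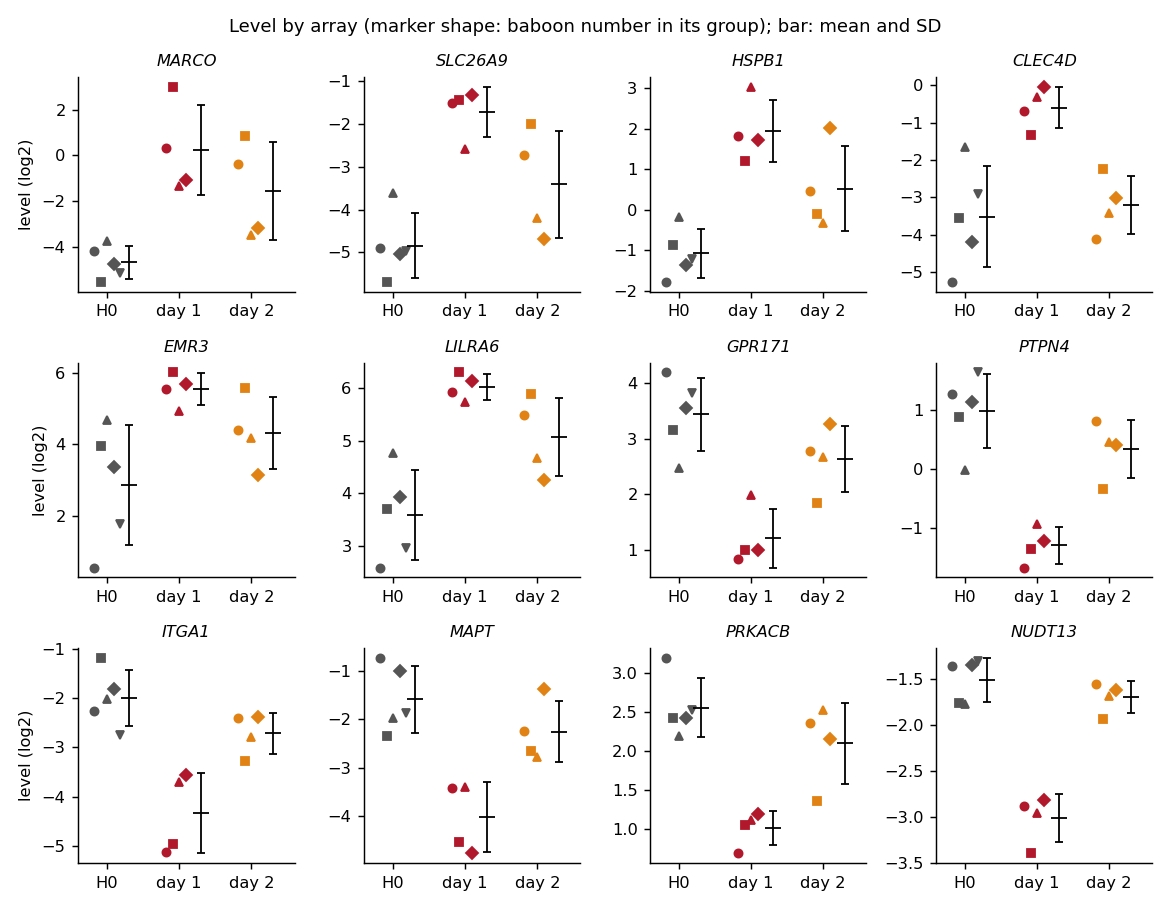
Level (log2) of 12 genes on each H0 array (grey), H1-2 day 1 array (red) and H1-2 day 2 array (orange), with the marker shape giving the baboon's number in its group and the bar the mean and SD. In all 12 genes the red points lie wholly above or wholly below the grey points, which was a condition of choice except for PRKACB and NUDT13. For CLEC4D and ITGA1 the day 2 means were -3.20 and -2.72, against -0.59 and -4.33 on day 1. ITGA1 was below background on every day 1 array.

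Of the 10 genes with the smallest p-values, HSPB1, SLC26A9, LILRA6 and ITGA1 were described above. PRKACB, a catalytic subunit of protein kinase A, read 0.68, 1.05, 1.11 and 1.18 on day 1 against 2.19 to 3.19 in H0 (-1.55 ± 0.26, adjusted p = 0.0104), and its other probe differed by -0.93. C22orf29 read 0.84, 0.91, 0.96 and 0.80 against 1.47 to 2.21 (-1.11 ± 0.18). Its probe also holds a polyadenylation signal, shown in capitals on the minus strand.
C22orf29 probe at the transcript's end, chr22:19833672-19833701: atatgagcaagaAATAAAtttttgatgtgc
NUDT13, a Nudix hydrolase, was above background on all 5 H0 arrays and none of the 4 on day 1, at least 2.53-fold lower (fitted -1.51 ± 0.22). NBPF10 belongs to a family of near-identical copies, and its 2 other probes differed by -1.17 and 0.44 while the brightest fell by 2.16 ± 0.35, so it is uncertain. ABCC3, an export pump for organic anions, was above background on 0 of 5 H0 and 2 of 4 day 1 arrays, at least 1.47-fold higher (fitted 1.99 ± 0.30). MCAM, the adhesion molecule CD146, was above background on 0 of 5 H0 arrays and 1 of 4 on day 1, at least 1.44-fold higher (fitted 2.42 ± 0.39). Of the 26 genes named so far by size or p, 15 were called within scan day 1, 3 without H1-2 baboon 1 (ABCC3, HSPB1 and NUDT13), 2 with scan day as a fixed block and 0 with slide as a fixed block.

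Detection differed between the groups for some genes. Well above background on 4 of 4 day 1 arrays and 0 of 5 H0 arrays were 5 genes, all of them called. Such a split favours a call, and over all genes tested 8.59% were called in either direction. Besides MARCO and SLC26A9 they were EPS8, a signalling adaptor of the actin cytoskeleton (at least 3.19-fold higher), HEATR4 (at least 1.68-fold) and a transcript without a symbol (at least 1.50-fold). The reverse, 5 of 5 H0 and 0 of 4 day 1 arrays, was seen in 71 genes, of which 36 were called and 25 of these carry a symbol. Examples are CRB1 (at least 2.28-fold lower), SIRT4 (at least 2.03-fold), NAF1 (at least 1.95-fold) and LAMA4 (at least 1.69-fold), which like EPS8 and HEATR4 were named after their values were seen.

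The 44 gene lists that follow hold 1777 tested members, a gene in several lists counting in each, of which 127 rose and 101 fell. Over all genes tested 4.18% were called higher and 4.42% lower, and over genes with a symbol 4.98% and 5.46%. Fewer were called under some other settings. Without H1-2 baboon 1, 1 rose (HSPB1) and 0 fell, and with scan day as a fixed block it was 0 and 0. With slide as a fixed block it was 0 and 1, and within scan day 1, 20 and 24. More were called under others: without H0 baboon 3, 217 rose and 154 fell, and quantile normalization gave 92 higher and 169 lower. Within scan day 1 some list medians lay near those of all arrays. They were 0.40 against 0.46 for glycolysis, -0.42 against -0.36 for the mitochondrial ribosome and -0.54 against -0.50 for ribosome biogenesis. In others they lay further apart: 0.38 against 0.64 for glycogen, 0.57 against 0.88 for lipid handling and -0.99 against -0.75 for the circadian clock. Scan day 1 holds a part of the same arrays, so near medians say little about the scan day.

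Some genes of sugar metabolism rose in each of several branches. Of 23 glycolysis genes 6 rose and 1 fell (median 0.46), and of 8 pentose phosphate genes 4 rose and 0 fell (median 1.05). Of 14 glycogen genes 5 rose and 0 fell (median 0.64). The median over all genes was 0.09, and 4.18% of all genes were called higher. SLC2A3, a glucose transporter of white blood cells, read 5.52, 4.59, 4.47 and 5.02 against 1.85 to 4.20 in H0 (1.98 ± 0.36, adjusted p = 0.0141). PKM2, pyruvate kinase of muscle and leukocytes, rose by 1.06 ± 0.22, while PFKM, the muscle form of phosphofructokinase, fell by 1.00 ± 0.19 from 0.29 to 0.72 in H0 to between -0.79 and -0.02. In the pentose phosphate pathway, which makes NADPH, TALDO1 read 9.99, 9.85, 9.47 and 9.54 against 8.10 to 9.21 (1.16 ± 0.23, adjusted p = 0.0141). TKT and PGD rose by 1.07 ± 0.28 and 1.37 ± 0.38. In glycogen metabolism, GYG1, the primer of glycogen synthesis, rose by 1.94 ± 0.45, PYGM, a glycogen phosphorylase, by 1.61 ± 0.36 and PGM1, which links glycogen to glycolysis, by 0.91 ± 0.23. All these groups moved beside 11 of 14 neutrophil markers.

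The genes called in the mitochondrial lists were falls. Of 15 citric acid cycle genes 0 were called (limma), with 2 at an unadjusted p under 0.05 (median -0.15), and 1 of 80 respiratory chain and ATP synthase genes fell (ATP5S, -1.14 ± 0.25, median -0.09). Of 21 fatty acid oxidation genes 0 were called and 10 had an unadjusted p under 0.05 (median 0.22), and CPT1A, which admits long-chain fatty acids into mitochondria, differed by 1.18 ± 0.38 (adjusted p = 0.0532). Of 71 genes for the mitochondrial ribosome 12 fell and 0 rose (median -0.36), and of 26 for import and chaperones 3 fell and 0 rose (median -0.44). Over all genes tested 4.42% were called lower. MRPS21 read 1.16, 1.41, 1.89 and 1.71 against 2.26 to 2.62 in H0 (-0.88 ± 0.21, adjusted p = 0.0193). MRPS9 fell by 0.95 ± 0.23 and MRPL9 by 0.67 ± 0.18. DNAJC19, a co-chaperone of the inner membrane import motor, read 0.32, 0.93, 0.84 and 0.73 against 1.46 to 1.89 (-1.01 ± 0.20, adjusted p = 0.0141). TIMM10 and TIMM50, parts of the import machinery, fell by 0.73 ± 0.19 and 0.61 ± 0.18. The mean level of the mitochondrial ribosome list, relative to the H0 mean, was -0.57, -0.16, -0.30 and -0.41 on day 1 against -0.16 to 0.09 in H0, with baboon 2 level with the lowest H0 array.

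Some genes of ribosome assembly and RNA processing also fell. Of 34 ribosome biogenesis genes 7 fell and 0 rose (median -0.50). NOP56, a core protein of box C/D ribonucleoproteins, read 3.15, 3.16, 3.96 and 3.74 against 4.24 to 5.25 (-1.14 ± 0.24, adjusted p = 0.0145), and RRP1B fell by 1.09 ± 0.25. NOP14 ended below background on every day 1 array and was at least 1.68-fold lower. Of 84 splicing genes 7 fell and 0 rose (median -0.17), among them SNRNP35 (-1.01 ± 0.20), PRPF19 (-0.71 ± 0.15) and SNRPD1 (-0.87 ± 0.21). Of 61 translation factors 2 fell, PABPC4 by 0.74 ± 0.16 and EEF1B2 by 0.89 ± 0.26 (median -0.24). Among 23 aminoacyl-tRNA synthetases 1 was called, CARS, which rose by 1.00 ± 0.29 (median -0.26). Of 48 proteasome genes 2 fell, both assembly chaperones: PSMG1 by 1.07 ± 0.22 and PSMG4 by 0.75 ± 0.22 (median -0.003). The lower share was 8.33% for splicing, 3.28% for translation and 4.17% for the proteasome, against 4.42% of all genes. These falls stood beside 11 of 15 natural killer and 5 of 14 T cell markers.

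**Figure D4:**
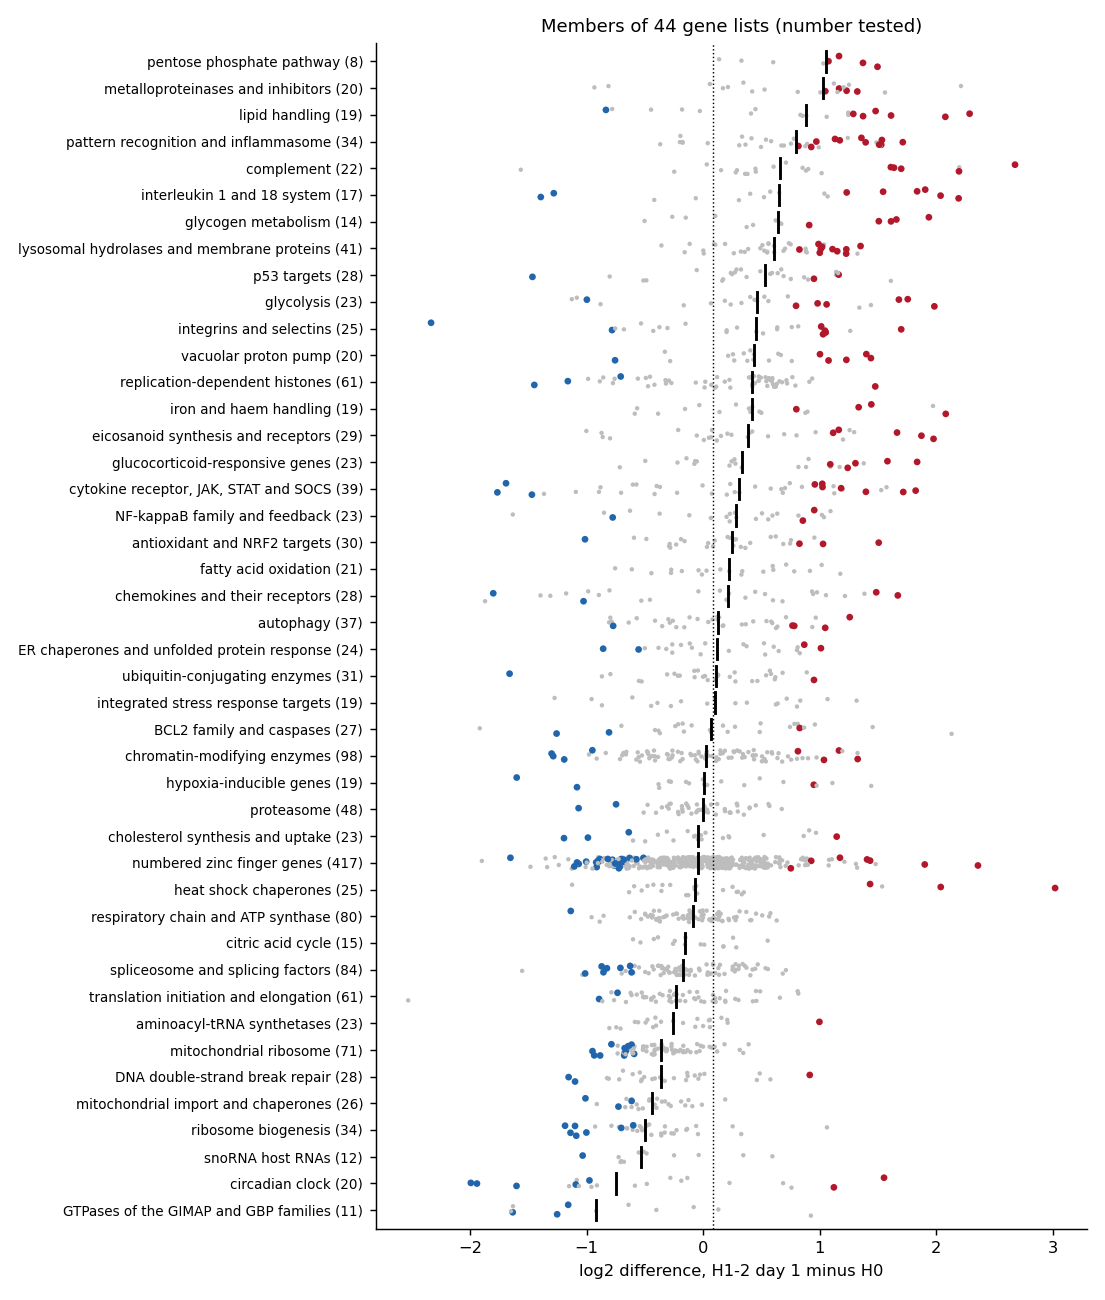
Each row is a gene list with its number of tested members, each point a member's log2 difference (H1-2 day 1 minus H0; red and blue are past the threshold), the bar the list median and the dotted line the median of all genes, 0.09. List medians run from -0.92 (GIMAP and GBP GTPases) to 1.05 (pentose phosphate pathway).

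Some genes of the lysosome and its proton pump rose, beside 4.18% higher and 4.42% lower over all genes. Of 41 lysosomal genes 11 rose and 0 fell (median 0.61), and of 20 pump genes 5 rose and 1 fell (median 0.43). GRN, progranulin, read 10.84, 10.92, 10.21 and 10.30 against 8.47 to 10.03 (1.35 ± 0.29, adjusted p = 0.0148). CTSC, the cathepsin that activates granule proteases, rose by 1.00 ± 0.23 and GLA, alpha-galactosidase, by 1.11 ± 0.28. Of the membrane sector of the pump, ATP6V0D1 read 6.19, 5.96, 5.95 and 6.35 against 4.04 to 5.37 (1.40 ± 0.27), ATP6V0B rose by 1.44 ± 0.29 and ATP6V0A1 by 1.23 ± 0.28. The mean of the lysosomal list was 0.99 and 0.99 above the H0 mean in baboons 1 and 2 and 0.25 and 0.30 in baboons 3 and 4, and the latter pair lay within the H0 range of -0.42 to 0.35. Among 37 autophagy genes 4 rose and 1 fell (median 0.12), with ATG7 at 1.26 ± 0.30, GABARAP at 0.78 ± 0.20 and MAP1LC3B at 0.77 ± 0.19. Lipid handling had 6 of 19 higher and 1 lower (median 0.88), including ABHD5, a lipase cofactor (1.37 ± 0.31), and DGAT2, which makes triglyceride (1.48 ± 0.38). Iron handling had 4 of 19 higher and 0 lower (median 0.42): the ferritin heavy chain FTH1 read 10.79, 10.80, 10.46 and 10.84 against 9.60 to 10.21 (0.80 ± 0.17), STEAP4 rose by 1.33 ± 0.34 and SLC11A1, an iron and manganese exporter of phagosomes, by 1.44 ± 0.38. In cholesterol synthesis and uptake 3 of 23 fell and 1 rose (median -0.05), and the 3 with the smallest p were the enzymes LSS (-1.19 ± 0.25), DHCR7 (-0.99 ± 0.25) and HSD17B7 (-0.64 ± 0.16).

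Some genes of innate sensing rose. Of 34 pattern recognition and inflammasome genes 11 rose (32.4%, against 4.18% of all genes) and 0 fell (median 0.80). The list's mean level, relative to the H0 mean, ran from 0.45 to 1.22 on day 1 and up to 0.83 in H0, so the groups overlapped. TMEM173, the STING adaptor of cytosolic DNA sensing, read 5.53, 5.19, 4.75 and 4.80 against 3.38 to 4.52 (1.17 ± 0.25, adjusted p = 0.0145). NLRC4, an inflammasome receptor, rose by 1.71 ± 0.41 and TLR8, an RNA sensor, by 1.51 ± 0.36. In the interleukin 1 and 18 system 6 of 17 rose and 2 fell (median 0.65): IL1RAP, the shared receptor chain, rose by 2.04 ± 0.51 and IRAK3, a brake on the receptor, by 1.54 ± 0.42, while the inhibitory receptor SIGIRR fell by 1.28 ± 0.33. Of 22 complement genes 5 rose and 0 fell (median 0.66). CD55, which dismantles complement convertases, read 5.48, 4.55, 4.51 and 4.31 against 2.28 to 4.37 (1.61 ± 0.32, adjusted p = 0.0141), with baboon 4 inside the H0 range. C5AR1, the C5a receptor, rose by 1.64 ± 0.35 and ITGAM, a subunit of complement receptor 3, by 1.70 ± 0.37. In eicosanoid metabolism 5 of 29 rose and 0 fell (median 0.38), led by the leukotriene genes ALOX5AP (1.66 ± 0.37) and ALOX5 (1.87 ± 0.45). Metalloproteinases and inhibitors had 4 of 20 higher and 0 lower (median 1.03), with ADAM17, the sheddase of TNF, at 1.17 ± 0.31 and TIMP1 at 1.32 ± 0.37.

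Cytokine receptor and adhesion lists had members called in both directions, beside 4.18% higher and 4.42% lower over all genes. In the cytokine receptor, JAK, STAT and SOCS list 7 of 39 rose and 3 fell (median 0.31). CSF2RA, the GM-CSF receptor alpha chain, read 1.31, 1.63, 1.24 and 1.58 against -1.82 to 0.44 (1.82 ± 0.40, adjusted p = 0.0155). IL17RA rose by 1.72 ± 0.38 and IFNAR1 by 1.02 ± 0.23. Among chemokines and receptors 2 of 28 rose, CXCR1 (1.67 ± 0.39) and CXCR2 (1.48 ± 0.37), and 2 fell (median 0.21), which is 7.14% each way. CXCR1 and CXCR2 are both neutrophil markers here and related in sequence, and whether their probes separate them in baboon RNA was not checked. Of 25 integrins and selectins 5 rose and 2 fell (median 0.45), with ITGA1 in the second group and SELPLG, the selectin ligand PSGL-1, at 1.01 ± 0.26. In the NF-kappaB list 2 of 23 rose, REL by 0.95 ± 0.21 and NFKB1 by 0.85 ± 0.21, and TRAF2 fell by 0.78 ± 0.21 (median 0.28), or 8.7% higher and 4.35% lower.

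In the stress lists few genes were called, beside 4.18% higher and 4.42% lower over all genes. Of 25 heat shock chaperones 3 rose and 0 fell, with a list median of -0.07. Beside HSPB1 they were HSPA1A, the inducible Hsp70, with 5.16, 4.53, 3.22 and 3.66 against 1.27 to 2.85 (2.04 ± 0.42, adjusted p = 0.0141), and its near-identical copy HSPA1B (1.43 ± 0.39), which probes may not separate. Of 19 targets of the integrated stress response 0 were called (limma), with 6 at an unadjusted p under 0.05 (median 0.10), and 2 of 24 endoplasmic reticulum chaperones and unfolded protein response genes rose and 2 fell (median 0.12), with PDIA4 at 0.87 ± 0.21 and SDF2L1 at -0.86 ± 0.22. Hypoxia-inducible genes had 1 of 19 higher, EGLN1 (0.95 ± 0.25), and 2 lower (median 0.01). Antioxidant genes had 3 of 30 higher and 1 lower (median 0.24): the superoxide dismutase SOD2 at 1.51 ± 0.41, PRDX5 at 0.83 ± 0.24 and PRDX4 at -1.01 ± 0.27. Among double-strand break repair genes, XRCC5, the Ku80 subunit, rose by 0.91 ± 0.22, and PARP1 and ATM fell by 1.15 ± 0.34 and 1.10 ± 0.33, of 28 tested (median -0.37). Of 28 p53 targets 2 rose (7.14%) and 1 fell (3.57%), near the shares of all genes (median 0.53). At an unadjusted p under 0.05 (limma) there were 16 of the 28, 12 higher and 4 lower, against 26.8% of all genes. The list's mean level was above every H0 array on 3 of 4 day 1 arrays. DDB2, which recognises damaged DNA, read 4.61, 4.84, 3.63 and 3.32 against 2.65 to 3.24 (1.16 ± 0.35, adjusted p = 0.0446). BTG2 rose by 0.95 ± 0.26, and PLK2 fell by 1.46 ± 0.40. In the BCL2 family and caspases, BCL2, which holds back apoptosis, fell by 1.26 ± 0.33, CASP10 fell by 0.81 ± 0.21 (its other probes differed by -0.84 and 0.32) and BID rose by 0.83 ± 0.25, of 27 tested.

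Of 23 glucocorticoid-responsive genes 5 rose (21.7%, against 4.18% of all genes) and 0 fell (median 0.33). TSC22D3, the glucocorticoid-induced leucine zipper, read 8.19, 7.80, 8.19 and 8.16 against 5.87 to 7.43 (1.24 ± 0.32, adjusted p = 0.0251), TXNIP rose by 1.09 ± 0.29, and CD163, a haemoglobin scavenger receptor of monocytes, by 1.31 ± 0.36. The list's mean level was 0.40 to 0.70 above the H0 mean on all 4 arrays, against -0.63 to 0.29 in H0. Of 20 circadian clock genes 5 fell (25%, against 4.42% of all genes) and 2 rose (10%, against 4.18%), with a median of -0.75. Under the scalings tried that median ran from -0.87 to -0.27. The mean level of the clock list, relative to the H0 mean, was -0.45, -0.60, -0.22 and -0.74 on day 1. In H0 it ran from -0.49 to 0.37, so only 2 of 4 day 1 arrays lay below the H0 range. CLOCK, the core activator, fell by 1.09 ± 0.24, to background on 2 of 4 arrays, and RORA, a nuclear receptor of the clock that T cells also express, read 1.27, 1.31, 1.90 and 1.18 against 2.64 to 4.12 (-1.99 ± 0.45, adjusted p = 0.016). CSNK1D, a kinase acting on PER proteins, rose by 1.12 ± 0.25. The hour of day at which blood was drawn is in none of the sources used here, and its part in these values was not tested.

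Genes acting in the nucleus were called in both directions. Of 417 numbered zinc finger genes 7 rose and 23 fell (median -0.05), 1.68% and 5.52% against 4.18% and 4.42% of all genes. The closely related ZNF280B and ZNF280A were both higher, ZNF280B with 1.45, 1.51, 1.67 and 1.10 against -1.88 to 0.63 (1.90 ± 0.36, adjusted p = 0.0141) and ZNF280A with 1.41 ± 0.28, and ZNF777 fell by 1.11 ± 0.22. Of 98 chromatin-modifying enzymes 4 rose and 4 fell (median 0.03), with the arginine methyltransferase PRMT1 at -1.30 ± 0.30, KAT6B at -0.95 ± 0.25 (its other probe differed by 0.59, the opposite direction) and ARID3A at 1.16 ± 0.29. Replication-dependent histones had 1 of 61 higher and 3 lower (median 0.42): HIST1H4C and HIST1H4L, which encode the same protein from similar genes, fell by 1.45 ± 0.38 and 1.16 ± 0.29. Of 11 GTPases of the GIMAP and GBP families 3 fell and 0 rose (median -0.92), and all 3 were GIMAP genes, a cluster active in lymphocytes: GIMAP7 read 3.44, 3.50, 4.47 and 3.79 against 5.01 to 6.09 (-1.63 ± 0.30, adjusted p = 0.0141), GIMAP2 fell by 1.16 ± 0.23 and GIMAP5 by 1.25 ± 0.32. Of 12 snoRNA host RNAs 1 fell, SNHG9 (-1.03 ± 0.27), with a median of -0.53. Under the scalings tried, list medians changed sign for ubiquitin-conjugating enzymes (1 of 31 higher and 1 lower, median 0.11), endoplasmic reticulum chaperones, chromatin enzymes, hypoxia-inducible genes, integrated stress response targets, the BCL2 family and the erythroid markers, all of them between -0.11 and 0.12.

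**Figure D5:**
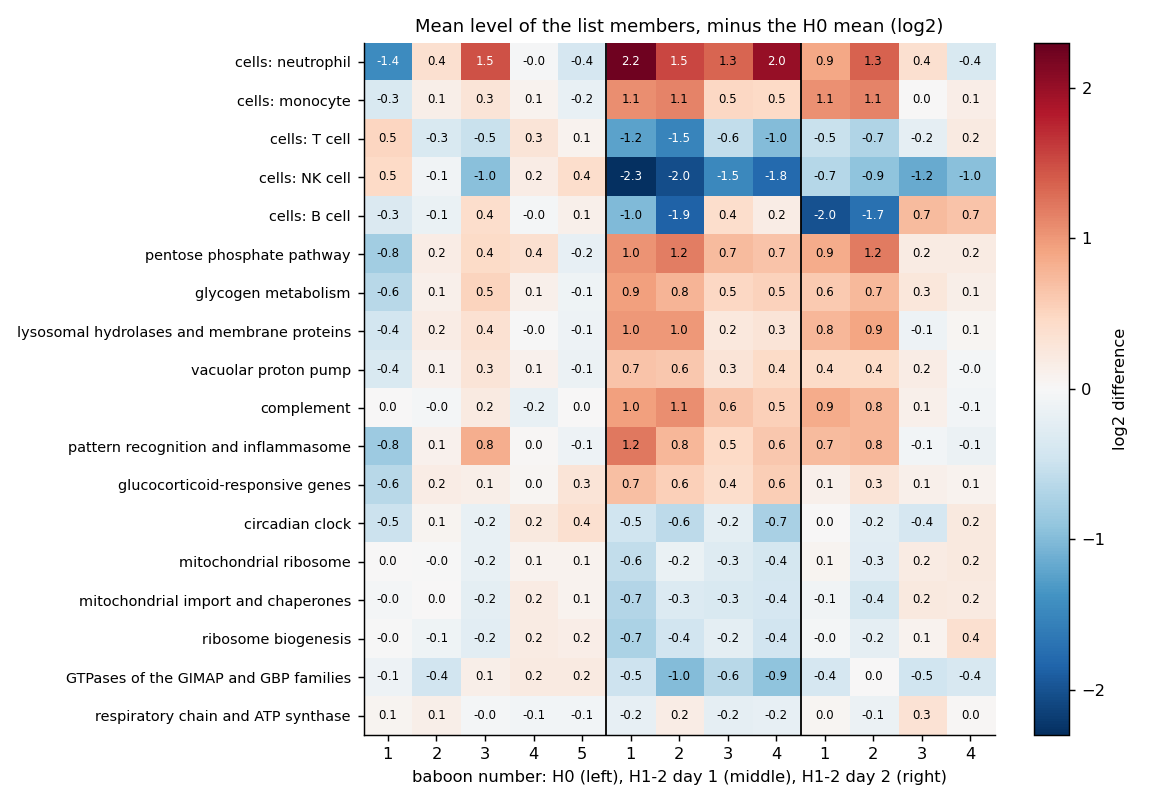
Mean level of the members of 18 lists on each array, minus the mean over the H0 arrays (log2), for H0, H1-2 day 1 and H1-2 day 2 by baboon number. The natural killer and T cell rows are low on every day 1 array (-2.29 to -1.49 and -1.52 to -0.57), and the B cell row reads -1.02 and -1.86 in baboons 1 and 2 and 0.41 and 0.16 in baboons 3 and 4.

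The 4 irradiated baboons did not move equally. In baboon 1, 98.5% of the genes that rose were above every H0 array and 98.5% of those that fell were below every H0 array. The same shares were 91.6% and 94.3% in baboon 2, 84.4% and 94.7% in baboon 4, and 72.1% and 74.7% in baboon 3. Over all genes tested, 27.1%, 24.4%, 15.1% and 20% were above every H0 array in baboons 1 to 4. The median difference of the genes that rose was 1.45, 1.25, 0.91 and 1.04 in the same order. These genes were chosen on the same arrays, so the shares describe how the arrays contributed. Baboons 1 and 2 shared a slide, as did baboons 3 and 4, so animal and slide cannot be told apart.

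Against the more severe category on the same day, 0 of 21130 genes (0%) were called (limma), with 1224 at an unadjusted p under 0.05 and 9 called with array weights. MARCO averaged 2.01 in H2-3 and 0.23 in H1-2, a difference of 1.79 ± 0.89 (adjusted p = 0.903). VSIG4 differed by 1.14 ± 0.61 and PTPN4 by -0.79 ± 0.51. CLEC4D averaged -0.59 in both groups (difference -0.0014 ± 0.65). A p that misses the threshold does not show that the categories are alike.

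A day later in the same-numbered H1-2 baboons, 0 of 21130 genes (0%) were called against day 1, with 4957 at an unadjusted p under 0.05. With the baboon number as a random block 902 were called, 463 higher on day 2 and 439 lower. With it as a fixed block the count was 0, with 5671 at an unadjusted p under 0.05, and array weights gave 2433. CLEC4D averaged -0.59 on day 1 and -3.20 on day 2 (-2.60 ± 0.69, adjusted p = 0.126), beside -3.51 in H0. ITGA1 averaged -4.33, -2.72 and -1.998 on day 1, day 2 and in H0 (1.62 ± 0.41 between the days, adjusted p = 0.125), and MAPT averaged -4.03, -2.26 and -1.59 (1.77 ± 0.51). CLEC4D, ITGA1 and MAPT were chosen among the largest day 1 changes, then by the smallest p between the days. That choice favours a return toward H0. ITGA1 and MAPT were below background on every day 1 array, so the size of their differences between the days was not measured. MARCO stayed at 0.86 or below on day 2, with baboons 1 and 2 at -0.39 and 0.86 and baboons 3 and 4 at -3.51 and -3.18. Every day 2 array was scanned on another day than the day 1 arrays, so day and scan cannot be told apart.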

How the data were processed

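Whole blood RNA was hybridised in 1 colour to Agilent SurePrint G3 8x60K v2 human arrays, and scans were quantified by Agilent Feature Extraction 10.7.3.1, per the submitters' processing notes. The intensity used was the processed signal of each spot, background-corrected by Feature Extraction per the file headers, which also name hg19 as the build of the probe positions. The authors' deposited table holds log2 values of 39726 probes with the same median, 4.70, in every column, and 39637 matched a probe. Each of its columns correlated best with its own array (0.998 to 1.00), and it was used only as an alternative, since its normalization and filter are not given in the sources used here.

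Spots of a probe were averaged without outlier spots, taken as log2 and reduced by the 75th percentile of that array's non-control probes. Probes well above background on at least 4 of 23 arrays were kept (27215), and the brightest stood for its gene. A single limma fit (3.58.1, R 4.3.3) with 5 group means gave all contrasts, with Benjamini-Hochberg adjustment at 0.05. A bound ("at least N-fold") sets the bright group's mean against, on each array of the dim group, the higher of the probe's own signal and the lowest signal among probes well above background. On simulated data over 21130 genes for H1-2 day 1 against H0, 30% of changes of log2 size 1 and 80% of size 2 were recovered, with 1 false call in 111. The simulated noise was independent between genes and arrays, with no effect of slide, scan day, animal or cell mix. These shares therefore do not carry over to the genes called on the real arrays. The exact test was run in R, and tables used Python 3.11.15, numpy 2.4.6, pandas 2.3.3 and scipy 1.17.1.

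Genes named were those with a symbol: the 10 largest rises and falls that passed the threshold without overlap and were above background in the brighter group, the 10 smallest p, the 3 smallest p in each of 51 lists (7 of cell markers), and the 3 smallest p of the former in each other contrast. Further genes were named after their values were seen where the text says so. Some genes that these rules name are not described. No name table was used, so symbols were told from other names by their pattern. The lists and the comparison were chosen with earlier results of these data known. Alternatives were other scalings, background corrections and filters, the deposited table, array weights, blocks for baboon, slide and scan day, and leaving out each array. H1-2 arrays of day 1 and day 2 carry the same baboon numbers in their titles and were taken as pairs on that ground. Deviations of same-numbered arrays correlated by 0.38, 0.39, 0.16 and 0.06, but 0 of 4 day 1 arrays correlated best with the day 2 array of their own number.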

Additional observations from a re-analysis of the deposited data

Results flagged for a closer look

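In groups of 4 or 5 arrays 1 array stood far from the others, by Dixon's ratio of gap to range, for 13 group levels of named genes and 3 list means. Chance flags about 1 in 20 groups, so such arrays are found in any set of genes this large.

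Among H1-2 day 1 arrays, baboon 3 stood apart in GPR171 (1.98, others 0.84 to 0.99), MTX3 (-3.38, others -5.23 to -4.94), FTH1 (10.46, others 10.79 to 10.84) and SLC26A9 (-2.57, others -1.52 to -1.32). In each of these 4 genes the array that stood apart lay nearer to the H0 arrays than the others did. Baboon 1 was the highest in TMEM44 (2.84, others 2.07 to 2.15) and in ATP6V0B (6.19, others 5.80 to 5.86). Baboon 2 was the lowest in TSC22D3 (7.80, others 8.16 to 8.19) and had the highest mean level of the respiratory chain list (3.81, others 3.44 to 3.46).

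Among H0 arrays, baboon 3 was the highest in TMEM44 (1.93, others -2.21 to -1.07) and in SLC11A1 (6.69, others 4.71 to 5.05), and the lowest in C22orf29 (1.47, others 2.06 to 2.21). Baboon 1 was the lowest in CD163 (3.38, others 5.00 to 5.62) and IL17RA (3.05, others 4.59 to 5.18). It was also the lowest in the mean level of the glucocorticoid-responsive list (1.10, others 1.77 to 2.02) and of the ubiquitin-conjugating list (1.78, others 2.09 to 2.17). Baboon 4 was the highest in CLOCK (-1.37, others -1.86 to -1.72). The H0 array of baboon 1 also had the lowest array weight of the 9 arrays compared, 0.40.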

How the results depend on the processing

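For H1-2 day 1 against H0 the count of 1816 genes became 211 in a fit of the 2 groups alone, 352 within scan day 1, 9 with slide and 4 with scan day as a fixed block. Leaving out each array gave 4 (without H1-2 baboon 1) to 3105 (without H0 baboon 3). With the replicate number as a block it was 0 (3200 at an unadjusted p under 0.05, limma). The labels do not say whether a number means the same animal in H0 and H1-2. Deviations of same-numbered H0 and H1-2 day 1 arrays correlated by -0.22, 0.09, -0.33 and 0.01. These correlations cannot decide it, since H1-2 arrays of day 1 and day 2, taken as pairs, also failed to match best by number. Other scalings, background corrections, filters, random blocks and array weights gave 1279 to 2414. For H2-3 against H1-2 on day 1, array weights called 9 genes, and leaving out each array 0 to 14 (14 without H1-2 baboon 2). For day 2 against day 1 the deposited table called 19 genes, normexp 4, no filter 5, array weights 2433 and the random baboon block 902. Leaving out each array gave 0 to 181 (181 without the day 2 array of baboon 2, 73 without that of baboon 3). The share of probes above background differed by -3.62 to -2.03 points, with an exact permutation p of 0.0286 without H0 baboon 4. Scan day was not fitted as a block for H2-3 against H1-2 on day 1, where all arrays share scan day 1. In the day 2 comparison neither scan day nor slide could be fitted, since no scan day or slide held arrays of both days. The cause of these changes was not tested. No named gene past the threshold changed sign under any setting tried. With 4 and 5 arrays and human probes, precision is limited by the number of arrays and by signals near background.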

Other observations

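B cell markers divided the irradiated baboons. Relative to the H0 mean, the mean level of the B cell list on day 1 was -1.02 and -1.86 in baboons 1 and 2 and 0.41 and 0.16 in baboons 3 and 4, against -0.33 to 0.40 in H0. On day 2 the same-numbered baboons read -1.998, -1.72, 0.73 and 0.66. The p53 target list read 0.63, 0.74, 0.27 and 0.09 on day 1 and 0.80, 0.96, 0.16 and 0.31 on day 2, against -0.36 to 0.17 in H0. Baboons 1 and 2 were again the higher pair on both days. Each pair shared a slide on each day, so animal and slide cannot be told apart, and no dose per animal is given in the sources used here.

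The platelet list followed no such division. It read 0.92, 0.08, -0.03 and 1.43 on day 1 and 1.82, 1.44, 2.41 and 0.04 on day 2, against -0.70 to 0.77 in H0.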
